A study of Mus musculus with 5 samples.

Results

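Gene expression in CD8 T cells activated with antigen, B7-1 and IL-21 was compared between 72 h and 48 h of culture. The comparison holds 3 of the study's 5 arrays, taken by their titles: 1 array at 72 h and 2 at 48 h, all with IL-21. The other 2 arrays, at 48 h without IL-21, entered the normalisation, the filter on low signal, the estimate of spread between arrays and the range of 48 h values. All cells were CD44lo CD8+ T cells, enriched by negative selection from lymph nodes of C57BL/6 mice aged 6 to 8 weeks that carried the OT-1 T cell receptor transgene, which gives most of their T cells the same receptor. In every culture the stimulus was H-2Kb complexed with peptide and B7-1, both on latex microspheres, and human recombinant IL-2 was present. Murine IL-21 was present or absent. No 72 h culture lacking IL-21 is analysed here, so what IL-21 did between 48 and 72 h and what time in culture did cannot be told apart. The 72 h side is 1 array and has no replicate check. The labels do not tie replicate numbers to mice or days, so the p-values measure only the spread between these samples.

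A naive CD8 T cell that meets its antigen with B7-1, the ligand of CD28, grows into a blast before and while it divides. MYC and IRF4, induced through the antigen receptor, are known to drive that growth, which needs new ribosomes, amino acid and nucleotide supply, protein folding and a nuclear import system. As the stimulus wanes, effector T cells are known to regain genes of migration and quiescence, such as those of the KLF2 programme. IL-21 acts through the common gamma chain and STAT3.

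RNA was measured on Affymetrix MG-U74Av2 arrays, in which a probe set is a group of oligonucleotides for 1 transcript. Of 12422 probe sets that were not controls, 7453 passed a filter on low signal and were tested, for 5610 named genes. The trimmed mean of the deposited signal was 65.9 on the 72 h array against 105.1 and 105.6 on the 48 h arrays with IL-21. A 48 h array without IL-21 was as low, at 65.3. Every comparison below therefore used quantile-normalised values and is relative to the bulk of transcripts. Signals below are normalised values and a level is the geometric mean of a group. CD8 T cell markers were bright at 72 h: Cd8a at 506, Cd8b1 at 1093 and Cd3e at 1650.0, none of them called different from 48 h (log2 differences -0.51, 0.12 and 0.54). The CD3 chains Cd3d and Cd3g, also markers of these cells, were called higher, as given below. Of the markers of other cells, 0 of 6 NK cell, 7 of 14 B cell, 11 of 26 myeloid, 4 of 7 CD4 or regulatory T cell and 6 of 14 erythroid, platelet or stromal markers passed the filter. The summed signal of the B cell markers was 826 and 613 at 48 h with IL-21, then 1098 at 72 h, most of it Ighm, which was itself bright (473 to 868; not called, adjusted p 0.222). For the myeloid markers it was 592, 485 and 656. H2-Ab1, an MHC class II chain (59.1 to 139.7, log2 difference 1.24, SE 0.23), was the 1 marker of these lists that was called, and its part in the results was not tested. In bulk RNA, fewer cells of a type and less RNA per cell cannot be told apart.

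The limma fit called 832 of 7453 probe sets (11.2%) at an adjusted p below 0.05, 301 of them higher (4.04%) and 531 lower (7.12%) at 72 h. Bright probe sets, with a level over 100 at 48 or 72 h, made up 691 of the calls, 270 higher and 421 lower. The change was at least 2-fold for 246 of the 301 higher and 414 of the 531 lower, and its median size was 1.31 on the log2 scale. All 832 lay outside both 48 h arrays with IL-21, and 301 and 528 lay outside all 4 arrays at 48 h, which 30.4% of all probe sets did above and 33.8% below. A call already sets the 72 h value against these same arrays and their spread, so this describes the calls and does not test them. The calls rest on few arrays. None remained without either 48 h array with IL-21, where the smallest adjusted p was 0.0798 without replicate 1 and 0.0627 without replicate 2 and 1703 and 1748 probe sets had an unadjusted p under 0.05. Without one of the 48 h arrays lacking IL-21 the count was 465 (replicate 1) or 432 (replicate 2). The count was 399 with the 3 arrays with IL-21 alone and 2128 in unscaled values. None passed without the variance trend (smallest adjusted p 0.0525, 1843 at an unadjusted p under 0.05). The share called higher was 36.2% and moved with the scaling, to 4.75% in unscaled values, 18.1% with arrays centred on their medians and 49.0% on the control transcripts, where the median of all probe sets was -0.58, -0.17 and 0.10.

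With each gene represented by its probe set of highest mean signal, 240 of 5610 genes were called higher (4.28%) and 426 lower (7.59%). The members of each list were chosen with earlier results of these arrays known, so their counts describe and do not test. The median gene differed by -0.01, with the 5th percentile of genes at -1.27 and the 95th percentile at 1.21 on the log2 scale. In unscaled values the median of every list of at least 5 tested genes that is given below as above 0 was below 0, except that of the homing receptors (0.30). Set against the median over all probe sets, these lists kept their side under every scaling tried, except mitosis, which lay near 0. Of the 832 called probe sets 828 kept their sign in the unscaled values and all 832 under the other scalings.

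Irf4, Srm, Cd7 and Aldoc stood for 4 sides of the change. Irf4, the transcription factor that sustains expansion of activated CD8 T cells, had signals of 1883 and 1903 at 48 h without IL-21, 1858 and 2009.5 at 48 h with it, and 346 at 72 h. All 4 arrays at 48 h were high and close together, and the 72 h array was 5.58-fold below the level of the 48 h arrays with IL-21 (log2 difference -2.48, SE 0.12, adjusted p 0.00678). Srm, spermidine synthase of the polyamine pathway, gave 774 and 745 at 48 h without IL-21, 814 and 660.2 at 48 h with it, and 87.7 at 72 h. It fell 8.36-fold (-3.06, SE 0.18, adjusted p 0.00928). Its probe set is of a type that can share oligonucleotides with related sequences. Cd7, an immunoglobulin superfamily receptor of T cells, gave 26.0 and 15.9 at 48 h without IL-21, 21.8 and 24.3 at 48 h with it, and 516 at 72 h. The 48 h signals were near background and the 72 h signal was clear of all of them (4.48, SE 0.37, adjusted p 0.00928). Aldoc, the aldolase isoform of brain that also answers to hypoxia, gave 75.7 and 94.3 at 48 h without IL-21, 62.6 and 65.4 at 48 h with it, and 727 at 72 h, 11.4-fold higher (3.51, SE 0.23, adjusted p 0.00928). In all 4 the 72 h array lay outside the range of the 4 arrays at 48 h, as it did for nearly all called probe sets. All 4 were chosen as markers of this comparison with earlier results of these arrays known, so their values describe and do not test. Each was measured by 1 probe set.

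**Figure D1:**
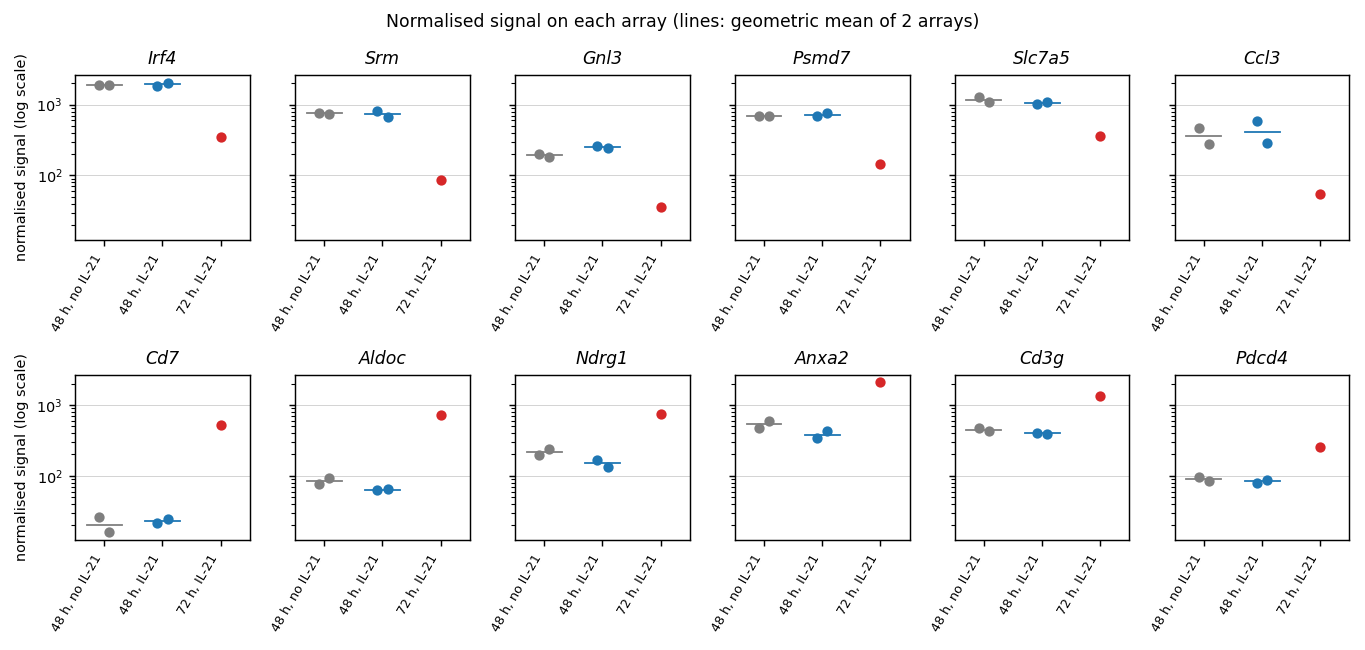
Normalised signal (y axis, log scale) of 12 genes on each of the 5 arrays (points, coloured by group; lines are the geometric mean of 2 arrays). Irf4, Srm, Gnl3, Psmd7, Slc7a5 and Ccl3 are lower on the 72 h array than on every 48 h array, and Cd7, Aldoc, Ndrg1, Anxa2, Cd3g and Pdcd4 are higher; Irf4 went from 1932 to 346 and Aldoc from 64.0 to 727.

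Within the MYC and MAX network most members were not called, and those called moved in opposite directions. Myc fell from a level of 279 to 124 (-1.17, SE 0.23, adjusted p 0.0308). Mxd4, which pairs with MAX and opposes MYC, rose from 13.6 to 195 (3.85, SE 0.41, adjusted p 0.00983), from a signal near background. Mxi1, another antagonist, stood at 92.7 to 201 (1.12, SE 0.27) with an adjusted p of 0.0544, and Max, the shared partner, at 298 to 243 (-0.30, SE 0.21, adjusted p 0.420). These made 1 higher and 1 lower call among 8 measured members. Of 8 polyamine genes, 2 were called lower, Srm and Odc1, ornithine decarboxylase, the first enzyme of the pathway and a textbook MYC target (194 to 70.5, -1.46, SE 0.19).

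Genes of ribosome assembly in the nucleolus fell, with the highest share of lower calls among the lists examined. Of 52 measured genes 35 were called lower and 0 higher, 50 had a negative difference and 48 lay below all 4 arrays at 48 h, which 34.7% of all genes did. The median log2 difference was -1.33. Gnl3, the GTPase nucleostemin, had signals of 202 and 185 at 48 h without IL-21, 259 and 243 at 48 h with it, and 35.8 at 72 h (-2.81, SE 0.20, adjusted p 0.00928). Ppan, a factor of large subunit maturation, fell from 149 to 28.1 (-2.41, SE 0.23), and Nop2, a 28S rRNA methyltransferase, from 355 to 88.2 (-2.01, SE 0.17). Fbl, the methyltransferase fibrillarin of box C/D particles, was still bright at 72 h, with signals of 1548 and 1461 at 48 h without IL-21, 1414 and 1561 at 48 h with it, and 552 at 72 h (-1.43, SE 0.13). Bright members fell as well as dim ones. Ncl, nucleolin, and Npm1, nucleophosmin, the brightest of the list, dropped less than most (3159 to 1473, -1.10, and 3226 to 1903, -0.76; both were chosen after their values were seen).

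The promoters of these genes were searched for CACGTG, the E-box that MYC and MAX bind, which reads the same on both strands, in a window from 250 bases before to 50 after each RefSeq start. It stood in 11 of the 44 nucleolar genes that had a promoter in the table (25.0%), against 12.4% of 4559 tested genes and 8.09% of 27025 genes in the table. Among the nucleolar genes it was found in 7 of 29 called lower (24.1%) and 4 of 15 not called (26.7%), so the shares were close. None of the 6 polyamine genes that had a promoter in the table held it in this window. Of the 2 polyamine genes called lower only 1 had a promoter there, and Srm, which had none, was not searched. Shown are 2 members called lower with the E-box in capitals, one close to the start and one farther upstream, from RefSeq on GRCm38.p6.
Nop2, chr6:125131633-125131932, + strand: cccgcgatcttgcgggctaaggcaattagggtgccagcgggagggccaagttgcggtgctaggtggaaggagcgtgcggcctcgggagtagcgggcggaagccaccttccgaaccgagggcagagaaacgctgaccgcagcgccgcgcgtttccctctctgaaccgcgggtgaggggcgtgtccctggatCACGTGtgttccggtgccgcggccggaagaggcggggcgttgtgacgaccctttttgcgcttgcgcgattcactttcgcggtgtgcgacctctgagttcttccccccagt
Imp4, chr1:34439579-34439878, + strand: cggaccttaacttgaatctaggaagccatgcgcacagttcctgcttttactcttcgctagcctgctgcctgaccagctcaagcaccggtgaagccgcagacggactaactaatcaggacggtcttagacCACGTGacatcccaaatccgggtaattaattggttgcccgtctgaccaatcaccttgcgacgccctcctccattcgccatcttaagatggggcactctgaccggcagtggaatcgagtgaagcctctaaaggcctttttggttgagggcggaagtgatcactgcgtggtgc
In the Nop2 window the E-box begins 60 bases before the start, and in that of Imp4, a subunit of the U3 small nucleolar particle (225 to 82.3, -1.45, chosen after its value was seen), it begins 121 bases before it.

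The polymerases that make ribosomal and transfer RNA followed the same direction. Of 23 genes of RNA polymerase I, RNA polymerase III and their factors 8 were lower and 0 higher (median -0.54). With a mean signal over 100, where fewer were tested, 4 were lower and the median was -0.26. Polr1a, the largest subunit of polymerase I, fell from 167 to 34.3 (-2.29, SE 0.20, adjusted p 0.00928). Ubtf, the factor that binds the ribosomal gene promoter, fell from 364 to 187 (-0.96, SE 0.17). Both probe sets of Taf1d, a subunit of the polymerase I selectivity factor, were called lower (-2.84 and -1.29). Cytosolic ribosomal proteins themselves were not called lower: limma called 0 of 25 measured genes lower (0 at an unadjusted p under 0.05), and the median was 0.03. Rpl22 was called higher (45.5 to 166, 1.87, SE 0.31), but its other probe set had the opposite sign (-0.65).

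Genes of nucleotide and amino acid supply fell in part. Of 27 purine and pyrimidine synthesis genes 8 were called lower and 0 higher (median -0.48). Shmt1, which feeds folate one-carbon units, fell from 304 to 73.1 (-2.06, SE 0.19), Ctps, CTP synthase, from 563 to 186 (-1.60, SE 0.16), and Gart, a purine synthesis enzyme with several activities, from 385 to 131 (-1.56, SE 0.19). In the list of amino acid transport and ATF4 targets, 7 of 24 were lower and 1 higher (median -0.96). Slc7a5, the large neutral amino acid transporter that CD8 T cells need for growth, had signals of 1282 and 1084 at 48 h without IL-21, 1014 and 1076 at 48 h with it, and 359.5 at 72 h (-1.54, SE 0.16, adjusted p 0.00928). The 4 arrays at 48 h were high and the 72 h array fell below all of them. Bcat1, a branched-chain aminotransferase (348 to 107, -1.71), Slc1a5, the neutral amino acid and glutamine transporter (227 to 108, -1.07), and Psph, the last enzyme of serine synthesis (575 to 273, -1.07), fell with it. The member called higher was Ddit4, an inhibitor of mTORC1 that ATF4 and hypoxia both induce (405 to 1201, 1.57, SE 0.17, adjusted p 0.0102).

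Genes that act directly in translation fell unevenly. Of 21 aminoacyl-tRNA synthetase genes, which charge tRNAs, 12 were lower and 0 higher (median -0.98), among them Rars (517 to 189.8, -1.45, SE 0.18), Iars (595 to 235, -1.34, SE 0.17), Lars (289.7 to 125, -1.21) and Farsa (273 to 114, -1.26). Of 43 initiation and elongation factors 10 were lower and 1 higher (median -0.51). Gspt1, the release factor eRF3a, fell from 1024 to 372 (-1.46, SE 0.14), and Eif3b, a scaffold of eIF3, from 972 to 474 (-1.04, SE 0.17). The gene called higher was Pdcd4, which binds and inhibits the helicase eIF4A, with signals of 96.6 and 85.6 at 48 h without IL-21, 80.4 and 87.5 at 48 h with it, and 257 at 72 h (1.61, SE 0.22, adjusted p 0.0145).

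Some genes of mitochondrial protein synthesis and import fell, while most respiratory chain genes were not called. In the list of mitochondrial ribosome and import genes 14 of 54 were lower and 0 higher (median -0.42), with Mrpl12 (446 to 126, -1.82, SE 0.18), the channel subunits Tomm40 (223 to 82.5, -1.44) and Timm23 (965 to 382, -1.34), and the chaperone Timm8a1 (171 to 38.3, -2.16). Among 73 respiratory chain and citrate cycle genes 3 were lower and 2 higher, fewer in percent than among all genes. Their median was -0.04. Cyc1, cytochrome c1, was one of the lower (1611 to 849.9, -0.92), with its dimmer probe set at 0.16. Cox7a2l and Ndufv3 were the higher (342 to 761, 1.16, and 96.2 to 235, 1.29).

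Nuclear transport and the proteasome were further large groups of lower genes. Of 35 nuclear pore and transport genes 17 were called lower and 0 higher (median -0.72). Xpot, the exportin of tRNA, fell from 230.0 to 58.7 (-1.97, SE 0.21), Rcc1, the exchange factor of Ran, from 365 to 113 (-1.69, SE 0.20), Nup54, a pore channel protein, from 332 to 99.1 (-1.75, SE 0.21), and the importin Ipo4 from 201 to 71.4 (-1.49). Of 37 proteasome genes 14 were lower and 0 higher (median -0.62). Psmd7, a non-ATPase subunit of the regulatory particle, had signals of 687 and 688 at 48 h without IL-21, 684 and 770.5 at 48 h with it, and 144 at 72 h (-2.33, SE 0.16, adjusted p 0.00928). Psmd1 (494 to 165, -1.58), Psmd5 (310.2 to 118, -1.39) and Psmc2 (591 to 286, -1.05) belong to the same particle or its assembly.

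Folding factors fell in part. Of 33 chaperonin and heat shock genes 8 were lower and 0 higher (median -0.55). Hsph1, an exchange factor of HSP70, fell from 366 to 89.3 (-2.04, SE 0.18), and Hspa9, the mitochondrial HSP70, from 704 to 296 (-1.25). Hspa4 had 2 of its 5 probe sets called lower and 1 dim set at 0.22. Of 27 folding genes of the endoplasmic reticulum 4 were lower, Hspa5, the chaperone BiP (874 to 369.8, -1.24, SE 0.18), Creld2 (156 to 70.4, -1.14), Pdia6 (492 to 246, adjusted p 0.0274) and Hsp90b1 (1015 to 597, -0.77). The list's median was -0.17.

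**Figure D2:**
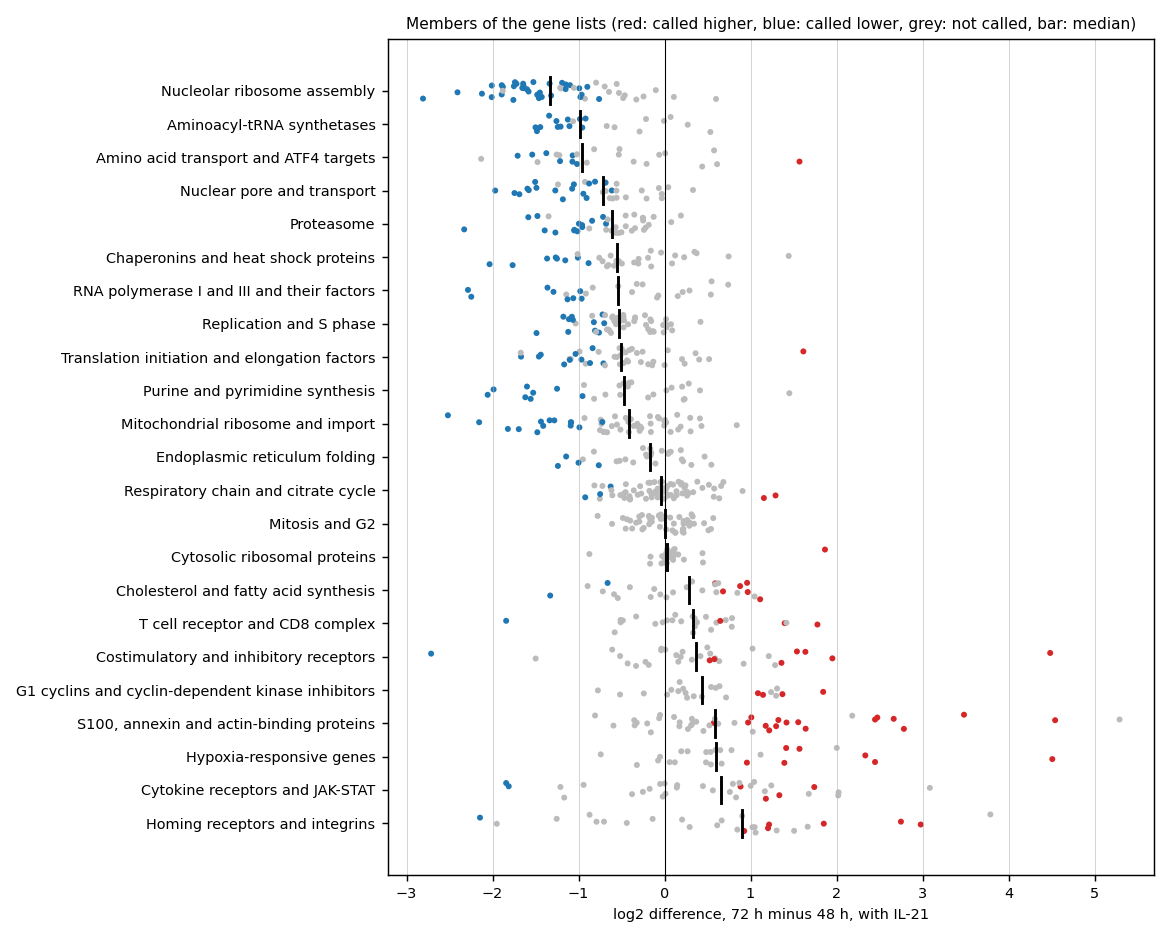
Log2 difference, 72 h minus 48 h with IL-21 (x axis), of every measured member of 23 gene lists (y axis), red where called higher, blue where called lower and grey where not called; black bars are list medians. Nucleolar ribosome assembly lies farthest left (median -1.33), mitosis and cytosolic ribosomal proteins lie near 0, and homing receptors lie farthest right (median 0.90).

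Where a gene had several probe sets they mostly agreed. Of 948 genes with 2 or more tested probe sets 644 (67.9%) had 1 sign throughout, and of the 191 with a called probe set 163 (85.3%) did. In 34 genes every probe set was called, 15 higher and 19 lower, and no gene was called in both directions. Nsun2, an RNA cytosine methyltransferase, was lower in all 3 probe sets (-1.35, -1.55 and -1.22). Ddx18 (-1.68 and -1.65) and Nop16 (-1.96 and -1.72), factors of ribosome assembly, and the folate carrier Slc19a1 (-1.20 and -1.77) were lower in both. So were Fkbp4, a cochaperone of HSP90 (-1.27 and -1.31), and Rpp14, a subunit of RNase P (-1.55 and -1.44). The genes higher in every probe set included Ndrg1, a hypoxia-induced protein (2.70 and 2.33), Grina (1.77 and 1.77) and the transcription factor Gtf2i (1.61 and 1.74). They also included Ube2h, a ubiquitin-conjugating enzyme (1.96 and 1.98), Smim14 (1.31 and 1.41) and Pglyrp1, a peptidoglycan recognition protein (3.37 and 3.47). The last started from signals of 17.1 and 8.18. For Aldoa, Bcl2l11, Ccni, Ets1, Ipo4, Lef1, Nsdhl, Pdia6 and Scd1 every probe set had 1 sign but some were not called. Probe sets of 1 gene share the arrays and are not replicates.

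**Figure D3:**
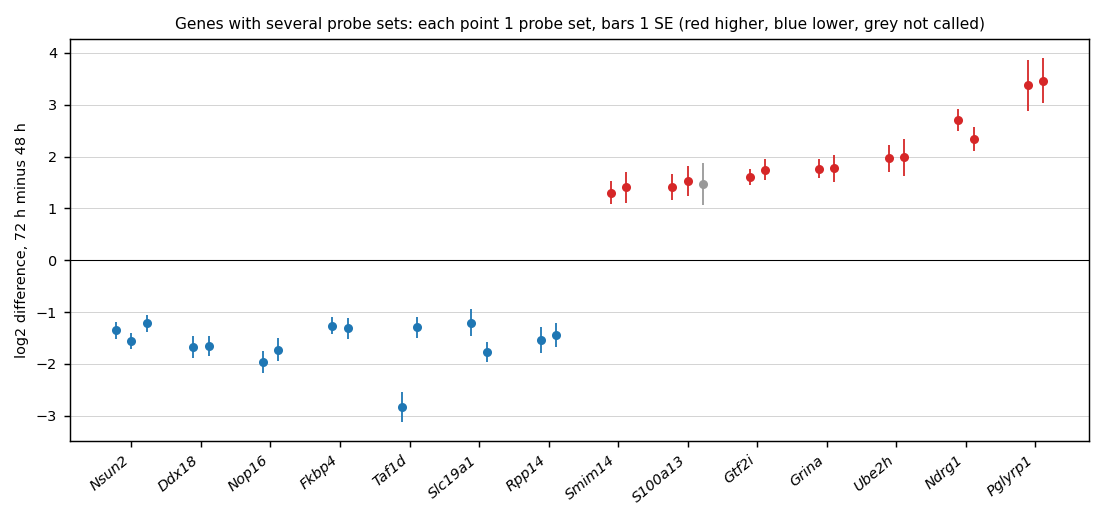
Log2 difference, 72 h minus 48 h with IL-21 (y axis), of each probe set (points, bars 1 SE) of 14 genes with several probe sets (x axis), red where called higher, blue where called lower and grey where not called. The genes were picked from those whose probe sets all had 1 sign, so the points of each lie on 1 side of 0 by choice. Nsun2 spans -1.22 to -1.55, and the widest gap is in Taf1d (-2.84 and -1.29).

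Some genes that the antigen receptor induces early fell. Of 31 such transcription factors 6 were lower and 1 higher (median -0.05), so the list as a whole stayed near the median gene. Beside Irf4 the lower ones included Egr2 (198 to 62.6, -1.66, SE 0.25), which limits T cell activation, Batf3 (678 to 308, -1.14, SE 0.22) and Nfatc1 (355 to 199, -0.84, SE 0.17). Myb, a factor of progenitor and memory T cells, rose from 172 to 405 (1.24, SE 0.26, adjusted p 0.0356). Batf, the AP-1 partner of IRF4, was at 158 to 144 (-0.13, SE 0.44, adjusted p 0.881). Otud4, a deubiquitinase, and the RNA-binding or assembly factors Wdr77 and Surf2 were among the largest falls of bright genes (-2.38, -2.49 and -2.30); a second, dim probe set of Otud4 was not called (-0.49).

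Some cytokine and chemokine transcripts fell steeply. Ccl3, which encodes the chemokine MIP-1α, had signals of 474 and 275 at 48 h without IL-21, 590.3 and 286 at 48 h with it, and 55.0 at 72 h (-2.90, SE 0.49, adjusted p 0.0219). Its neighbour in function Ccl4 gave 347 and 205 at 48 h without IL-21, 425 and 229 at 48 h with it, and 57.3 at 72 h (-2.45, SE 0.45, adjusted p 0.0265). On both the 72 h array was below all 48 h arrays. Lta, lymphotoxin alpha, fell from 149 to 11.1 by its brighter probe set (-3.74, SE 0.51), while the dimmer one stood at 0.07. Ltb, its membrane-bound partner, went the other way, from 702 to 1858 (1.40, SE 0.20, adjusted p 0.0151). Tnf, chosen after its value was seen, was dim at both times (41.9 to 7.08, -2.56). Together 4 of 16 listed genes were lower and 1 higher (median -0.63, which moved with the filter, to -0.16 with none and -1.57 with a mean signal over 100). Cish and Socs2, STAT5-induced inhibitors of cytokine signalling, also fell (197 to 55.0, -1.84, SE 0.29, and 273 to 77.6, -1.81, SE 0.26).

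Some DNA replication genes fell and mitotic genes were not called. Of 52 replication and S phase genes 11 were lower and 0 higher (median -0.53), with the helicase subunits Mcm2 (482 to 222, -1.12, SE 0.16) and Mcm5 (1164 to 664, -0.81, SE 0.17), Ung, uracil-DNA glycosylase (255 to 118, -1.11, its other bright probe set not called at -0.11), and Orc6 of the origin recognition complex (411 to 242, -0.76). None of 49 mitosis and G2 genes was called in either direction in limma (3 higher and 2 lower at an unadjusted p under 0.05), and their median was 0.01. Top2a, the mitotic topoisomerase, had a log2 difference of 0.51 (SE 0.16, adjusted p 0.0998). Among G1 cyclins, inhibitors and related genes 4 of 23 were higher and 0 lower (median 0.43): Ccng2, a cyclin of non-dividing cells (149 to 537, 1.84, SE 0.22), Ccni (348 to 901, 1.37), Sesn1, a stress-induced inhibitor of mTORC1 (75.4 to 167, 1.14), and the antiproliferative Btg2 (279 to 593, 1.09). Ccnd2 was at 538 to 314 (-0.78, SE 0.33, adjusted p 0.198).

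On the rising side, calcium-binding, membrane-organising and actin-binding proteins were the list with the most higher calls. Of 41 measured genes 16 were called higher and 0 lower (median 0.59). Anxa2, annexin A2, had signals of 477 and 597 at 48 h without IL-21, 339.7 and 431 at 48 h with it, and 2087 at 72 h (2.45, SE 0.22, adjusted p 0.00928). All 48 h arrays were well below the 72 h array. Crip1, a LIM domain protein, rose from 309 to 1961 (2.66, SE 0.40), Ahnak, a large scaffold that binds annexin A2, from 68.1 to 378 (2.47, SE 0.23), and Myo1f, an unconventional myosin of leukocytes, from 33.7 to 232 (2.78, SE 0.28). Gsn, the actin-severing gelsolin, gave 28.6 and 64.9 at 48 h without IL-21, 16.4 and 55.7 at 48 h with it, and 704 at 72 h (4.54, SE 0.78, adjusted p 0.0233). S100a10, the partner of annexin A2, also rose (918 to 2863, 1.64, SE 0.32, chosen after its value was seen), while its dim second probe set was not called (0.43). S100a13 was higher in all 3 probe sets, with 2 called.

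Some receptors of homing and adhesion rose. Of 27 measured 6 were higher and 1 lower, and the median of 0.90 was the highest of the lists with at least 5 tested members. Itgb7, the beta chain of the gut-homing integrin, had signals of 168 and 297 at 48 h without IL-21, 171 and 392 at 48 h with it, and 1741 at 72 h (2.75, SE 0.54, adjusted p 0.0300). Ccr7, the lymph node homing receptor, rose from 204 to 470.4 (1.20, SE 0.19), Selplg, the selectin ligand PSGL-1, from 1221 to 2320.0 (0.93, SE 0.16), and Itgb2, the beta chain of LFA-1, from 149 to 346 (1.22, SE 0.22). Sema4a, a semaphorin of the immune system, and Rasgrp2, which activates Rap1 downstream of chemokine receptors, were among the largest rises (2.54 and 2.53). The other members called were S1pr4 (1.85) and Cxcr4 (2.98), higher, and Ccr4 (-2.15), lower, all chosen after their values were seen, the last 2 dim at 48 h. Cd44 was at 54.0 to 109.8 (1.02, SE 0.32, adjusted p 0.0996).

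Klf2, the transcription factor that maintains homing receptors and quiescence in T cells, had been removed by the filter on the mean over all arrays, which works against transcripts that are bright at 72 h alone. It had signals of 4.75 and 5.64 at 48 h without IL-21, 4.16 and 4.42 with it, and 115 at 72 h. In the fit without the filter it was higher (4.74, SE 0.52, adjusted p 0.0149). It was the 1 removed probe set over 100 at 72 h, and 15 removed probe sets were called in that fit, all 15 higher. Also below the filter were Gzma, Ifng, Prdm1, Eomes, Bcl6 and Cdkn1b, whose 72 h signals lay between 1.85 and 27.0.

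Costimulatory and antigen receptor genes rose in part. Of 32 costimulatory and inhibitory receptor genes 7 were higher and 1 lower (median 0.37). Beside Cd7 these included Cd160 (40.8 to 158, 1.95, SE 0.29), Cd37, a tetraspanin (81.6 to 254, 1.64), and Cd47, the signal against phagocytosis (191 to 556, 1.54). Cd200, a ligand that inhibits myeloid cells, fell from 243 to 37.0 (-2.72, SE 0.43, adjusted p 0.0187). In the T cell receptor list 3 of 27 were higher and 1 lower (median 0.33). Cd3g gave 471 and 429 at 48 h without IL-21, 400.4 and 393 at 48 h with it, and 1359.8 at 72 h (1.78, SE 0.15, adjusted p 0.00928), and Cd3d rose from 431 to 1135 (1.40, SE 0.15). The third was the GTPase Rac2 (1398 to 2190.2, 0.65), and the lower one was Cish, above. Both CD3 chains were above all 48 h arrays at 72 h, while Cd3e missed the threshold (adjusted p 0.0620).

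Some cytokine receptors rose. Of 32 receptor and JAK-STAT genes 4 were higher and 2 lower (median 0.66, and 0.41 without replicate 1 of the 48 h arrays with IL-21). Il2rb, the chain that IL-2 and IL-15 share, rose from 202 to 457 (1.18, SE 0.23), Ifngr1, an interferon gamma receptor chain, from 34.5 to 115 (1.74, SE 0.27), and Jak1 from 216 to 399 (0.88, SE 0.18). Il2ra, the alpha chain of the high-affinity IL-2 receptor, was at 132 to 68.9 (-0.94, SE 0.40, adjusted p 0.198). Stat3, through which IL-21 signals, was at 341 to 623 (0.87, SE 0.25, adjusted p 0.0775). Among 13 regulators of effector and memory fate 2 were higher and 0 lower (median 0.71, and 0.40 without the same array): Lef1, a Wnt pathway factor of naive and memory T cells (516 to 999.8, 0.96, SE 0.19), and Ets1 (72.6 to 169, 1.22, SE 0.23). Id2, which favours effector cells, was at 182 to 449 (1.31, SE 0.40, adjusted p 0.0944).

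Cytotoxic granule genes were mostly not called, though most had a positive difference. Of 15 measured, 11 were positive and 7 lay above all 4 arrays at 48 h, which 30.9% of all genes did. The median was 0.70. It was 0.43 without replicate 1 of the 48 h arrays with IL-21 and 0.095 with a mean signal over 100. Gzmb, granzyme B, one of the brightest transcripts, had signals of 1345 and 3222 at 48 h without IL-21, 2438 and 5405 at 48 h with it, and 3717 at 72 h. The 72 h value lay within the range of the 48 h arrays (0.03, SE 0.61, adjusted p 0.978). Of 15 granule and cytotoxic genes 1 was higher, Klrk1, the receptor NKG2D (78.1 to 239.9, 1.62, SE 0.25, with its other probe set at 1.55), and 1 lower, Serpinb9, the inhibitor of granzyme B (167 to 82.3, -1.02, SE 0.22).

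Some hypoxia-responsive and a few glycolytic genes rose, and most genes of both lists were not called. Of 25 hypoxia-responsive genes 7 were higher and 0 lower (median 0.59). The list includes Anxa2 and Ddit4 above, and Ndrg1, whose brighter probe set had signals of 199 and 237 at 48 h without IL-21, 169 and 134 at 48 h with it, and 758 at 72 h (2.33, SE 0.23, adjusted p 0.00928). The other members called higher, chosen after their values were seen, were Egln1, a prolyl hydroxylase that marks HIF for decay (245 to 475, 0.96), Kdm3a, a histone demethylase (123 to 329, 1.41), and P4ha2, a collagen prolyl hydroxylase (72.7 to 191, 1.39, its dimmer probe set not called at 0.58). The remaining one was Selenbp1, near background at 48 h (5.55 to 126, 4.51). Of 24 glycolysis genes 3 were higher and 1 lower (median -0.08). Beside Aldoc these were the glucose transporter Slc2a3 (147 to 356, 1.28, SE 0.19), the muscle aldolase Aldoa (3280.0 to 4739, 0.53, SE 0.11) and, lower, Gpd2 of the glycerol phosphate shuttle (139.8 to 67.6, -1.05).

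The core of the hypoxia response element was searched for in the same promoter windows, as ACGTG or GCGTG on either strand. ACGTG also lies within the E-box. It stood in 19 of 22 hypoxia-responsive genes with a promoter and in 19 of 22 glycolysis genes (86.4% each), against 69.3% of tested genes and 46.7% of all genes in the table. Of the hypoxia-responsive genes, 6 of 6 called higher and 13 of 16 not called held a match. Aldoc is shown, since it rose most of the glycolytic genes. The first of its 2 windows from RefSeq on GRCm38.p6 has 3 matches (capitals, on either strand), which begin 50 bases before and 11 and 27 bases after the start.
Aldoc, chr11:78322823-78323122, + strand: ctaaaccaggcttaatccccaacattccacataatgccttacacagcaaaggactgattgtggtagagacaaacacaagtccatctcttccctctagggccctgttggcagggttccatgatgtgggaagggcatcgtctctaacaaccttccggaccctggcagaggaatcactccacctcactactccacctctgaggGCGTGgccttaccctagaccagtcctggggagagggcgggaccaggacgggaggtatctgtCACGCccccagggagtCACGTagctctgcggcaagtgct
A motif this short is found in most promoters of tested genes, and a match does not show that a factor binds there.

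Lipid, redox and survival genes moved in mixed ways. In cholesterol and fatty acid synthesis 6 of 26 were higher and 2 lower (median 0.29). Scd1, the stearoyl-CoA desaturase (217 to 468, 1.11, SE 0.22), and the sterol enzymes Nsdhl (162 to 317, 0.97) and Msmo1 (122 to 237, 0.96) rose. Tmem97, a sterol-regulated membrane protein, fell (698 to 278, -1.33, SE 0.18). Among 30 antioxidant genes 4 were higher and 5 lower. The lower ones included the thioredoxin system, with Txnrd1 (260.4 to 98.7, -1.40, SE 0.20), Txn2 (491 to 255, -0.95) and Txn1 (2768 to 1709.9, -0.69). Its inhibitor Txnip rose by 1 of 2 probe sets (1.25, the other -0.26), and Glrx, glutaredoxin (71.6 to 265, 1.89), and Mt2, a metallothionein (76.6 to 463, 2.60, SE 0.33), rose too. Of 31 apoptosis and survival genes 3 were higher and 0 lower, among the higher Dapk2, a death-associated kinase (40.8 to 131, 1.68), and Bcl2l11, the proapoptotic BIM (105 to 237, 1.18, SE 0.22). Of 46 lysosomal genes 2 were higher, Ctsd (235 to 526, 1.16) and Npc2 (490.0 to 1259, 1.36), and 1 lower, Gusb (160.0 to 62.5, -1.36). The share called higher was near that of all genes (4.28%) and the share called lower was below it (7.59%). In MHC class I presentation 1 of 13 was higher, H2-Q10 (47.1 to 155, 1.71), against 4.28% of all genes. No probe set of H2-K1 or H2-D1 was called. Among interferon-stimulated genes 1 of 30 was higher, Samhd1 (211 to 521, 1.31, its dim second probe set not called at 0.30), a share below that of all genes.

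Some of the largest differences upward were not called. Among bright probe sets at least 4-fold higher at 72 h, 36 were called and 28 were not, whereas 27 at least 4-fold lower were called and 0 were not. Of the 28, 25 had a higher signal on the array of replicate 2 than on that of replicate 1 both with and without IL-21. The same held for 21 of the 36 called and for 2274 of all 7453 probe sets. For the 28, the median difference between those arrays, replicate 2 minus replicate 1, was 2.04 with IL-21 and 1.97 without. For the 36 called it was 0.31 and 0.30. A call depends on the spread between these same arrays, so the smaller size among those called is partly built in. The call does not depend on which replicate is higher. S100a6, a calcium-binding protein, gave 5.76 and 193 at 48 h without IL-21, 10.4 and 268 at 48 h with it, and 2066 at 72 h (5.29, SE 2.44, adjusted p 0.229). Klrd1, the receptor chain CD94, gave 28.9 and 133 at 48 h without IL-21, 47.9 and 259 at 48 h with it, and 992 at 72 h (3.16, SE 1.17, adjusted p 0.152). For both the 72 h array was the highest of the 5, and both were chosen after their values were seen, like Lgals3, galectin-3 (3.79, SE 1.64), Bcl3 (3.09, SE 1.88) and Mt1 (2.81, SE 0.94). Il7r, the IL-7 receptor of memory precursors, and Socs3, a STAT3-induced inhibitor, were of the same kind, at 89.6 to 364 (2.02, SE 0.63, adjusted p 0.0984) and 31.9 to 193 (2.60, SE 1.49, with the other probe set at 1.68). What sets the replicate arrays apart was not tested.

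**Figure D4:**
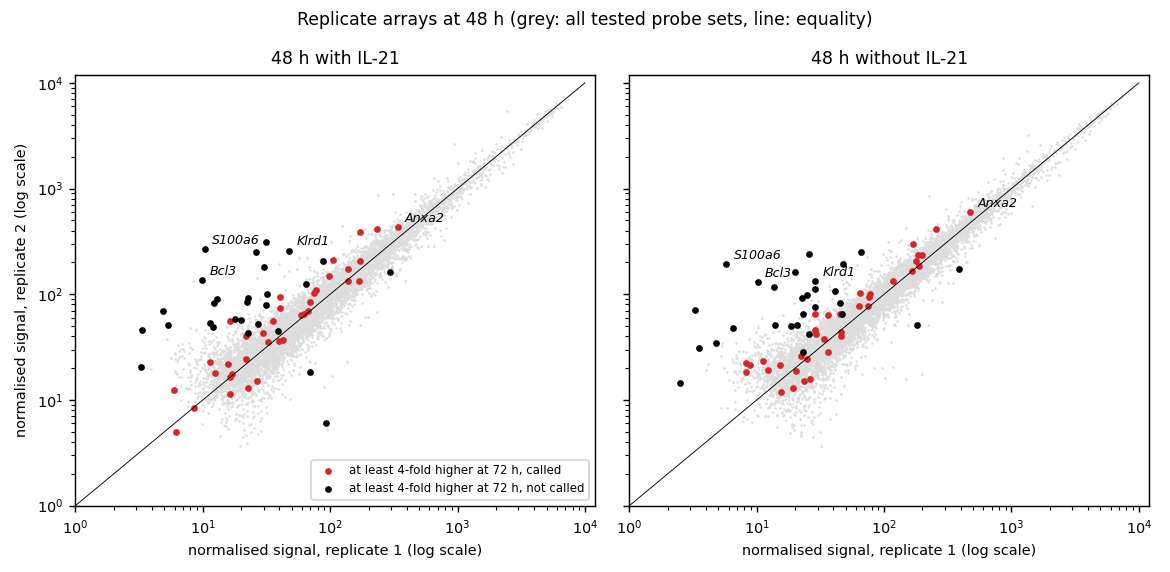
Normalised signal on replicate 2 (y axis) against replicate 1 (x axis), both log scales, of the 48 h arrays with IL-21 (left) and without (right); grey points are all tested probe sets and the line marks equality. Bright probe sets at least 4-fold higher at 72 h lie near the line where called (red, 36) and mostly above it where not called (black, 28), as for S100a6 (10.4 and 268 with IL-21). Distance from the line enters the call itself.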

How the data were processed

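The authors deposited 1 linear intensity per probe set and array, which the submitters' processing notes credit to MAS5. Its version is not given in the sources used here, and detection was not tested. The arrays' trimmed means (65.3 to 105.6) differed, so the deposited intensity values were not on a common scale. Log2 of the value plus 1.53, the 10th percentile, was quantile-normalised. The offset understates differences of dim probe sets and stays in the printed signals, and the normalisation removes any shift shared by all genes. Control probe sets were left out, and probe sets with a mean at or below the 40th percentile over 5 arrays were removed (4969), leaving 7453. The number of arrays limits the precision.

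Group means of the 3 groups were fitted to all 5 arrays with limma 3.58.1 in R 4.3.3 (2 residual degrees of freedom, empirical Bayes with a trend, two-sided, Benjamini-Hochberg over 7453 probe sets at 0.05). The lone 72 h array is assumed to vary like the 48 h groups. The procedure was tested on simulated data. Names came from the platform's probe table, updated through Entrez identifiers to GRCm38.p6 symbols (10817 of 10833 singly named probe sets matched), and promoters from RefSeq on GRCm38.p6.

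The members, the 40 gene lists and the naming rule were chosen with earlier results of these data known. The rule took Irf4, Srm, Cd7 and Aldoc, bright genes whose several probe sets agreed or that differed most, up to 4 called members per list and direction, and a set of T cell genes; not all are described. Alternatives covered the offset, scaling, filter, trend, arrays included and replicate block.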

Additional observations from a re-analysis of the deposited data

How the results depend on the processing

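The count of called probe sets depended on the arrays and on the variance model more than on the offset. Against 832 (301 higher, 531 lower), it was 2128 (101 and 2027) in unscaled values, 399 (148 and 251) with the 3 arrays with IL-21 only and 0 (0 and 0) without the variance trend. The higher calls were 122 with arrays centred on their medians, and the lower calls 335 on the control transcripts, scaled by the geometric mean of 9 probe sets. Leaving out each 48 h array in turn gave 0 to 465 calls (0 to 170 higher, 0 to 295 lower). The count of genes with several probe sets all of 1 sign was 644, and it was 1132 with no filter and 178 with a mean signal over 100, where fewer genes were tested.

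With the replicate block, which took the 72 h array as replicate 1 by its title, the calls were 1860 (860 and 1000) and included all 832. Across the tested probe sets, the differences between replicates 1 and 2 at 48 h with and without IL-21 correlated at 0.36. This value comes from only 2 pairs and the labels give no pairing, so the numbers are not taken as pairs. With this block Batf had 0.23 and Cd8b1 -0.046, both of the opposite sign.

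Of 171 genes named, those that changed sign under a setting were Batf, Cd3e, Cd8b1, Gzmb and Top2a, none of them called. In unscaled values Cd3e had -0.023, Cd8b1 -0.55, Gzmb -0.40 and Top2a -0.20, and with arrays centred on their medians Cd8b1 had -0.14. Leaving out each 48 h array gave -0.34 to 0.074 for Batf and -0.53 to 0.61 for Gzmb. The cause of these changes was not tested. Signals under 30 lie near background, so the size of changes that start or end there is uncertain.

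Of 26 gene lists with at least 5 tested genes and a median at least 0.25 from 0, the median moved by over 1.5 times in 12 with an offset of 50, 15 with arrays centred on their medians, 26 in unscaled values, 4 with no filter and 4 of 25 with a mean signal over 100. Leaving out each 48 h array moved 0 to 3. With an offset of 50 the median was -0.22 for cytokines, -0.29 for RNA polymerase I and III, -0.50 for amino acid transport, 0.32 for fate regulators and 0.51 for homing receptors, and with a mean signal over 100 it was 0.47 for fate regulators.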

Other observations

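Several further bright genes that belong to none of the lists differed between 72 and 48 h. Ypel3, a growth-suppressing YPEL family protein, rose (log2 difference 2.44, SE 0.26, adjusted p 0.00928 in limma). Fmnl1, a leukocyte formin that nucleates actin, rose by its brighter probe set (1.83, SE 0.37), and the dimmer one had 1.64 with an adjusted p of 0.0532. Dnm1, a dynamin of endocytosis, rose by 1 of 2 probe sets (2.60, the other 1.39). Wdr74, a factor of large ribosomal subunit maturation, fell (249.8 to 47.2, -2.40, SE 0.19). Both probe sets of Hnrnpab, an RNA-binding protein, were called lower (-1.21 and -3.11), the second from a dim signal. St6galnac4, a sialyltransferase, was also called lower by both (-1.79 and -1.63).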
